A study of Mus musculus with 6 samples.

Results

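Small nucleolar RNAs (snoRNAs) and spliceosomal small nuclear RNAs (snRNAs) were examined in mouse colon tumors with and without Tgfbr2. The members were all probe sets whose symbols in the array's annotation start with Snora, Snord or Rnu, and 122 of 35556 probe sets met this rule. They comprised 31 sets for box H/ACA snoRNAs (Snora), 66 for box C/D snoRNAs (Snord) and 25 of the Rnu class, and carried 82 different small RNA symbols. No set was left out for a low signal, and the mean signal of 114 members reached the 20th percentile of the whole array.

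Tumors came from 3 double knockout mice, with the genotype CDX2P-G19Cre;Apcflox/flox;Tgfbr2flox/flox, and from 3 Apc knockout mice, with the genotype CDX2P-G19Cre;Apcflox/flox. All mice were C57BL/6J and 3 weeks old, and each gave 1 array (Affymetrix Mouse Gene 1.0 ST). Both groups had lost Apc in cells in which the transgene was active, and they differed in Tgfbr2. The CDX2 promoter drives the transgene in the colon epithelium, and the Cre of this line is switched on by chance in part of the cells. The share of unrecombined cells in the dissected tissue is not known from these data. The tissue was cut from frozen sections by laser, and total RNA was purified on silica columns. Values are log2 signals from robust multiarray averaging (RMA), in which a difference of 1 stands for 2-fold.

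H/ACA snoRNAs guide the conversion of uridine to pseudouridine in ribosomal and spliceosomal RNA, and C/D snoRNAs guide the methylation of the ribose at the 2′ position. A few of both classes, such as U3, U8, U14, U17 and U22, take part in the cleavage of the ribosomal RNA precursor. Most vertebrate snoRNAs are cut out of the introns of host genes, many of which encode ribosomal proteins or translation factors, whereas U1, U2, U3, U8 and U12 are transcribed from genes of their own. The snRNAs U1, U2, U4, U5 and U6 form the major spliceosome, U11 and U12 belong to the minor spliceosome, and U7 acts in the formation of the 3′ end of histone mRNA. U3 and U7 carry Rnu symbols although neither takes part in splicing.

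The members are not 122 separate measurements. Their 6 values were identical in groups of sets, 42 sets shared their values with at least 1 other set, and 89 different value profiles remained. The profiles numbered 29 for H/ACA, 47 for C/D and 13 for Rnu. In addition, 61 sets carried several symbols, and 18 carried the symbol of a host or other gene, such as Rdm1 on all 7 sets for the U2 gene Rnu2-10. Near-identical copies of one RNA cannot be told apart on these sets.

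A few H/ACA sets also carried microRNA symbols, because a microRNA hairpin overlaps the snoRNA gene. The hairpins are shown since they are the members for which a reference sequence was at hand (RefSeq, GRCm38.p6), and capitals mark the bases within the annotated snoRNA.
Mir664 with Snora36b, chr1:185242975-185243043, plus strand: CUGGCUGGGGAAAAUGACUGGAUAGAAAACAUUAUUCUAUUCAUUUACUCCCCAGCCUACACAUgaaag
Mir1291 with Snora34, chr15:98519762-98519878, minus strand: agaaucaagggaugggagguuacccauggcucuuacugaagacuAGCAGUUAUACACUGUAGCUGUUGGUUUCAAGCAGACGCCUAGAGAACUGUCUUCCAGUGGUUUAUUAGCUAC
Mir3084-2 with Snora19, chr19:60774329-60774397, minus strand: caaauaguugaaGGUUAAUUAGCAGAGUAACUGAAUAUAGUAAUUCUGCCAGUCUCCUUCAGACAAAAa
Snora36b shared 64 of the 69 bases of the Mir664 hairpin, Snora34 shared 73 of the 117 bases of Mir1291, and Snora19 shared 56 of the 69 bases of Mir3084-2. Read on the strand of the hairpin, the snoRNA ended within it in 2 of the 3 cases. The last 6 bases were then ACACAU for Snora36b and ACAAAA for Snora19, which is the ACA box that gives the class its name, followed by NNN. Of the 1005 hairpins in the table, 0.796% had ACANNN at the same place as the Mir664 hairpin and 1.39% at the same place as the Mir3084-2 hairpin. For the reverse complement, NNNUGU, the shares were 0.995% and 1.09%.

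Before the comparison, the targeted gene and the arrays were examined. The probe set of Tgfbr2, which covers the whole transcript and not only the floxed exon, had log2 signals of 10.98, 10.35 and 10.47 in double knockout tumors, against 11.35, 11.37 and 11.09 in Apc knockout tumors. Each array correlated with its nearest array at r = 0.97 to 0.99 over all probe sets, and array medians lay between 7.68 and 7.797. Double knockout tumor 2 had the least similar array of its group. Its 5 smooth muscle markers had a median signal of 11.003, against 8.59 and 7.47 in double knockout tumors 1 and 3 and 7.89 to 8.75 in Apc knockout tumors. The 6 colon epithelial markers had a median signal between 12.33 and 12.69 in each tumor, and Epcam lay between 12.33 and 12.67. Cdx2 had 11.18, 8.24 and 10.93 in double knockout tumors, against 10.89, 10.73 and 10.08 in Apc knockout tumors. It was lowest in double knockout tumor 2, the tumor with high smooth muscle markers. Other epithelial markers went the other way, as Vil1, Krt8, Krt19 and Cdh1 were highest in this tumor, at 12.05, 14.18, 13.66 and 12.72.

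Most members had lower signals in double knockout tumors. The log2 difference (double knockout minus Apc knockout) was below 0 for 111 of the 122 sets, against 46.9% of the 23410 probe sets with a symbol, and above 0 for 11, against 53.1%. The median was -0.44, against 0.01 for all sets. Counted once per profile, 79 of 89 were below 0, with a median of -0.47. The Rnu class had the lowest median, -0.87 over 25 sets and -0.73 over 13 profiles, followed by H/ACA with -0.53 over 31 sets and 29 profiles. The C/D class had a median of -0.11 over 66 sets, which was -0.36 over the 42 sets that are not Snord116. In bulk tissue, less RNA per cell cannot be told apart from fewer cells that contain it. Of 6 leukocyte markers, 3 were below and 3 above 0, and their median signals were 7.75, 9.12 and 8.44 in double knockout tumors, against 9.41, 8.97 and 9.20 in Apc knockout tumors. S100a9, a neutrophil protein, had a difference of -1.84 with an unadjusted p of 0.035 and an adjusted p of 0.845 by limma. S100a8 had -1.68, and both were lowest in double knockout tumor 1. Of the other leukocyte markers, Cd68 had -0.38, whereas Ptprc, Cd3e and Cd79a had 0.40, 0.08 and 0.62. The part of leukocytes in the members' values was not tested.

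**Figure D1:**
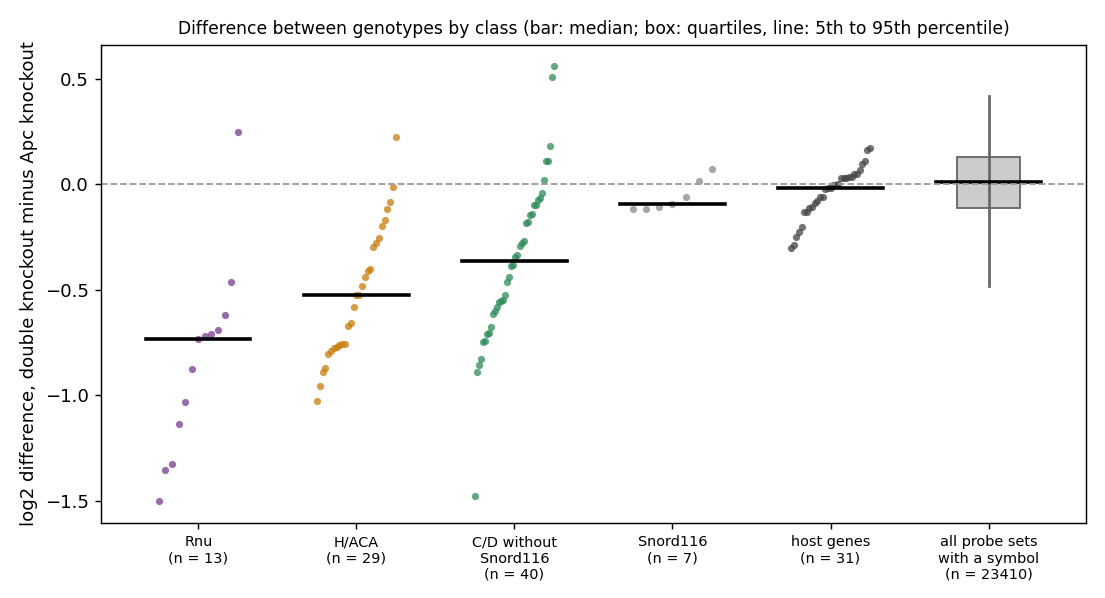
Log2 difference between the genotypes (vertical axis, double knockout minus Apc knockout) for each value profile of the Rnu, H/ACA, C/D and Snord116 groups, for the host genes of the snoRNAs, and for all 23410 probe sets with a symbol (box and line). The black bars are medians, at -0.73 for Rnu, -0.53 for H/ACA and -0.36 for C/D without Snord116, against -0.02 for host genes and 0.01 for all sets.

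No single member passed the test. By limma, 0 of the 122 members and 0 of all 23410 sets had an adjusted p under 0.05, and the smallest adjusted p of a member was 0.845. At an unadjusted limma p under 0.05, 34 members were lower in double knockout tumors, against 3.51% of all sets, and 0 members were higher, against 1.89%. These 34 sets were 15 of the Rnu class, 11 H/ACA and 8 C/D, and corresponded to 24 profiles. The 3 double knockout tumors all lay below the 3 Apc knockout tumors for 37 members (25 profiles), against 6.3% of all sets, and all lay above them for 0 members, against 5.42%. The 37 sets were 20 Rnu, 10 H/ACA and 7 C/D sets. A difference of at least 2-fold with an unadjusted p under 0.05 was found for 12 members, against 0.53% of all sets in this direction. They were the 9 U1 sets, Rnu3a, Rnu12 and Snora74a. All of these are genes that the study itself listed from the same 6 arrays, so that they are not independent evidence of the direction.

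The methods' t-test gave 19 lower members at an unadjusted p under 0.05, against 2.73% of all sets, where limma gave 34, and 0 after Benjamini-Hochberg adjustment. With 3 tumors in each group, 0.1 is the smallest two-sided p that an exact permutation test can reach.

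The tumors did not differ evenly. Relative to the mean of the 6 tumors, the median shift over the 89 profiles was -0.28, -0.43 and 0.08 in double knockout tumors 1, 2 and 3, against 0.19, 0.43 and 0.09 in Apc knockout tumors 1, 2 and 3. Over all 23410 sets the same shift lay between -0.02 and 0.03 in every tumor. Double knockout tumors 1 and 2 thus held the low values and Apc knockout tumor 2 the high ones, while double knockout tumor 3 was level with Apc knockout tumor 3. The lowest of the 6 values was in double knockout tumor 2 for 43 profiles and in double knockout tumor 1 for 31. The highest was in Apc knockout tumor 2 for 60 of the 89.

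The shift of double knockout tumor 3 depended on the class. It lay below all 3 Apc knockout tumors for 11 of 13 Rnu profiles, 12 of 29 H/ACA profiles and 9 of 40 C/D profiles outside Snord116. Double knockout tumor 1 did so for 12, 24 and 24 profiles of these classes, and double knockout tumor 2 for 9, 25 and 32. Most Rnu profiles were therefore low in every double knockout tumor, and those of the snoRNA classes mainly in tumors 1 and 2.

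Within-array percentiles showed the same order without reference to the signal scale. They rank the probe sets of an array and depend on probe sequence as well as on abundance. The median percentile of the 25 Rnu sets was 81.5, 75.5 and 91.0 in double knockout tumors 1 to 3, against 94.8, 97.0 and 92.4 in Apc knockout tumors 1 to 3. Over the 13 Rnu profiles they were 81.5, 75.5 and 90.5, against 94.6, 96.1 and 92.4. In both counts every double knockout tumor lay below every Apc knockout tumor. The 9 U1 sets weigh heavily in this class, and their own medians were 81.5, 74.2 and 91.0, against 94.8, 97.0 and 92.4. The Rnu medians are therefore largely those of U1, which the study had listed. For the 31 H/ACA sets the values were 69.3, 68.5 and 75.7 in double knockout tumors, against 77.4, 82.1 and 75.9 in Apc knockout tumors, and the groups were separated only by a small gap. Over the 29 H/ACA profiles they were 70.6, 68.7 and 79.3, against 80.1, 83.1 and 78.0, and the groups overlapped. For the 66 C/D sets they were 44.4, 42.5 and 46.7 in double knockout tumors, against 46.2, 51.4 and 48.9 in Apc knockout tumors, and the groups overlapped.

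**Figure D2:**
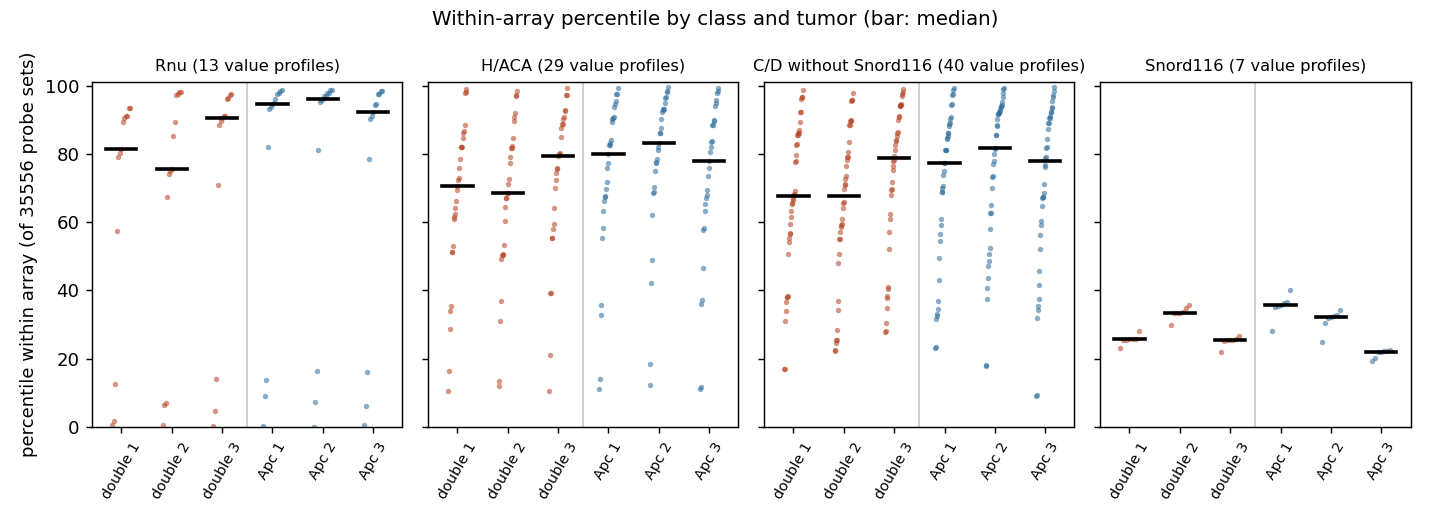
Percentile within the array (vertical axis, of 35556 probe sets) of every value profile in each tumor, double knockout tumors in red and Apc knockout tumors in blue, with the median as a bar. The Rnu medians of the 3 double knockout tumors sit below those of the 3 Apc knockout tumors, and the 7 Snord116 profiles lie in the lower part of every array.

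Among the Rnu sets, U12 and U3 had the clearest separation. Rnu12, the U12 RNA that recognizes the branch site of minor introns, had signals of 8.29, 8.92 and 9.23 in double knockout tumors, against 10.05, 10.06 and 9.75 in Apc knockout tumors. The groups did not overlap, and double knockout tumor 1 was lowest. The log2 difference was -1.14 ± 0.25 (SE, n = 3 each), or 2.20-fold lower, with an unadjusted p of 0.0035 and an adjusted p of 0.845 by limma.

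Rnu3a, a U3 gene, had 10.76, 10.77 and 10.98 in double knockout tumors, against 11.94, 12.21 and 11.45 in Apc knockout tumors. The spread within the double knockout group was small, with an SD of 0.12 against 0.39. The log2 difference was -1.03 ± 0.20 (SE, n = 3 each), with the smallest unadjusted p of all members, 0.00208, and an adjusted p of 0.845 by limma. The 4 sets for Rnu3b1 to Rnu3b4, the other U3 genes, shared 1 profile of 10.95, 10.35 and 10.88 in double knockout tumors, against 11.57, 11.72 and 11.52 in Apc knockout tumors. Their difference was -0.87 ± 0.18 (unadjusted limma p = 0.00251, exact permutation p = 0.1), again with no overlap. U3 therefore gave 2 profiles of different values that were both lower in all 3 double knockout tumors. Whether their probes tell the U3 genes apart was not tested.

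The U1 sets had the largest differences of the Rnu class. U1 pairs with the 5′ splice site. All 9 sets carried the symbols Rnu1b1, Rnu1b2 and Rnu1b6 and had 3 different profiles. In the profile shared by 5 sets, signals were 10.02, 9.43 and 10.95 in double knockout tumors, against 11.62, 12.21 and 11.08 in Apc knockout tumors. Double knockout tumor 3 and Apc knockout tumor 3 were only slightly apart, and the other tumors of the groups were far from each other. The difference was -1.502 ± 0.45 (SE, n = 3 each) with an unadjusted limma p of 0.0143, and the other profiles had -1.35 and -1.33.

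U2, which pairs with the branch site of major introns, followed another order among the tumors. In the profile shared by 4 of the 7 Rnu2-10 sets, signals were 11.31, 12.70 and 12.36 in double knockout tumors, against 12.91, 12.92 and 12.75 in Apc knockout tumors. Double knockout tumor 1 was far below the other 5 tumors, and double knockout tumor 2 was next to Apc knockout tumor 3. The difference was -0.73 ± 0.35 with an unadjusted limma p of 0.0777, and it was -0.33 without double knockout tumor 1. The 7 sets were between -0.73 and -0.69, none at p under 0.05, and 5 of them had no overlap between groups. All of them also carry Rdm1, and a set for Rdm1 alone had a difference of 0.16 ± 0.12.

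The remaining Rnu sets had low signals. Rnu5g, a U5 RNA of the major spliceosome, had 3.26, 4.31 and 3.995 in double knockout tumors, against 4.68, 4.47 and 4.28 in Apc knockout tumors, at percentiles between 1.82 and 8.97. Rnu7, the histone mRNA processing RNA, had 5.18, 4.40 and 5.37 in double knockout tumors, against 5.25, 5.53 and 5.56 in Apc knockout tumors. Rnu6, the U6 RNA at the catalytic centre of the spliceosome, had 2.72, 2.56 and 2.49 in double knockout tumors, against 2.35, 2.12 and 2.56 in Apc knockout tumors. Groups overlapped for all 3, and the values of Rnu6 were at a percentile of 0.54 or less on every array, so that this set gives no usable measure of a RNA that is abundant in all cells. No member carried a symbol for U4 or U11.

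**Figure D3:**
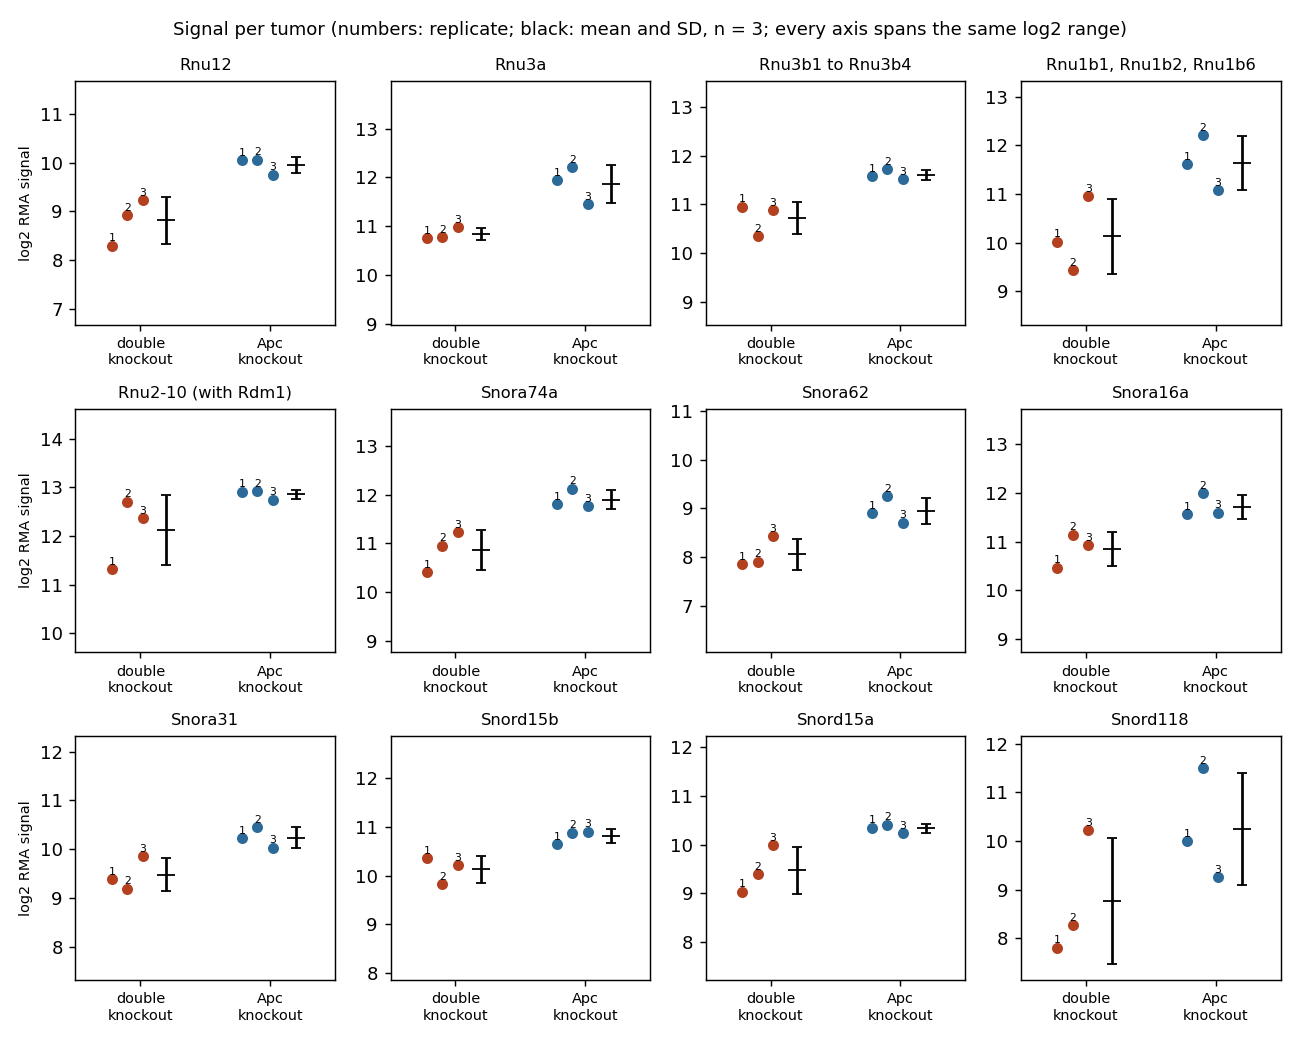
Log2 RMA signal (vertical axis) of 12 profiles in each tumor, double knockout in red on the left and Apc knockout in blue on the right, with the replicate number above each point and the mean and SD in black. U1 and U2 are shown by the profile that most of their sets share. The groups are apart for all profiles shown except Snord118, in which double knockout tumor 3 lies between the Apc knockout tumors.

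Among H/ACA snoRNAs, 29 of 31 sets were below 0, and differences ran between -1.03 and 0.22. The smallest p-value was that of Snora74a, also known as U19, with 10.41, 10.95 and 11.23 in double knockout tumors, against 11.80, 12.12 and 11.76 in Apc knockout tumors. The difference was -1.03 ± 0.23 (SE, n = 3 each), with an unadjusted p of 0.00375 and an adjusted p of 0.845 by limma. Snora74a is one of the genes listed by the study.

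Snora62, the E2 snoRNA in an intron of the ribosomal protein gene Rpsa, had 7.85, 7.91 and 8.43 in double knockout tumors, against 8.90, 9.24 and 8.71 in Apc knockout tumors. Its difference was -0.89 ± 0.21 (unadjusted limma p = 0.00498, exact permutation p = 0.1). Snora16a, a pseudouridylation guide within Snhg12, had 10.46, 11.14 and 10.93 in double knockout tumors, against 11.56, 12.0001 and 11.59 in Apc knockout tumors. In these sets every double knockout tumor was below every Apc knockout tumor, and the lowest one was tumor 1.

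Snora31, within Tpt1, had 9.38, 9.19 and 9.86 in double knockout tumors, against 10.23, 10.45 and 10.03 in Apc knockout tumors. Snora7a, within Rpl32, had a smaller difference of -0.58 ± 0.17, and Snora44, a second guide within Snhg12, had -0.77 ± 0.27. Each of these was also without overlap. The other sets among the 8 with the smallest p-values were Snora20 within Tcp1, with a difference of -0.76 ± 0.25, and Snora3 within Rpl27a, with -0.67 ± 0.24. In Snora3, double knockout tumor 3 lay within the Apc knockout group.

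The H/ACA sets with the 3 highest mean signals had differences of -0.30 to -0.17, and the next by signal were Snora74a and Snora16a, described above. Snora52, within Rplp2, had 13.07, 12.79 and 13.34 in double knockout tumors, against 13.27, 13.51 and 13.26 in Apc knockout tumors, at percentiles of 98.3 or more. Snora73a and Snora73b, the U17 RNAs that act in cleavage of the ribosomal RNA precursor, had differences of -0.30 ± 0.14 and -0.17 ± 0.12. In each of these 3 sets the groups overlapped, and the 95% confidence intervals reached down to -0.68 for Snora52, -0.63 for Snora73a and -0.45 for Snora73b.

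Other H/ACA sets had wide ranges over the tumors. Snora33, within Rps12, had 9.12, 8.89 and 10.31 in double knockout tumors, against 10.15, 10.88 and 10.16 in Apc knockout tumors. Its difference was -0.95 ± 0.41, and double knockout tumor 3 was above 2 of the Apc knockout tumors. Snora75 within Ncl, Snora69 within Rpl39 and Snora34 had differences of -0.79, -0.77 and -0.80. These rested in part on single tumors. Snora75 had -0.39 without double knockout tumor 2, Snora69 had -0.49 without double knockout tumor 1, and Snora34 had -0.42 without double knockout tumor 1 and -0.41 when Apc knockout tumor 2 was left out.

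The lowest H/ACA signals belonged to Snora36b, Snora19 and Snora2b. Snora36b, on the set shared with Mir664, stayed between 4.96 and 5.12 in all 6 tumors, and its difference was -0.01 ± 0.10. Snora19, on the set shared with the Mir3084 hairpins, had 5.54, 5.26 and 5.98 in double knockout tumors, against 5.30, 5.72 and 5.09 in Apc knockout tumors. Snora2b had a mean of 6.83 ± 0.35 in double knockout tumors and 7.02 ± 0.22 in Apc knockout tumors (SD, n = 3 each). None of these 3 had an unadjusted p under 0.05.

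Among C/D snoRNAs, the sets described first are 2 guides from introns of the ribosomal protein gene Rps3. Snord15b had 10.36, 9.82 and 10.21 in double knockout tumors, against 10.64, 10.88 and 10.90 in Apc knockout tumors. Its difference was -0.68 ± 0.17 (SE, n = 3 each), with an unadjusted p of 0.00599 and an adjusted p of 0.845 by limma. Snord15a had 9.04, 9.39 and 9.99 in double knockout tumors, against 10.34, 10.41 and 10.23 in Apc knockout tumors, with a difference of -0.86 ± 0.24. Neither overlapped between groups, and the lowest tumor differed, being tumor 2 for Snord15b and tumor 1 for Snord15a.

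Snord49b and Snord104 were among the C/D sets with the highest signals and also differed. Snord49b had 11.89, 11.92 and 12.74 in double knockout tumors, against 13.04, 13.14 and 12.85 in Apc knockout tumors. Snord104 had 12.96, 12.64 and 13.19 in double knockout tumors, against 13.33, 13.43 and 13.43 in Apc knockout tumors. The differences were -0.83 ± 0.25 and -0.47 ± 0.15, and the groups were apart in both. Snord87, a guide within Snhg6, had -0.71 ± 0.24, also without overlap.

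A group of C/D guides came from one host gene, Rpl13a. Snord32a, Snord33, Snord34 and Snord35a had differences of -0.55, -0.89, -0.74 and -0.75. By limma, Snord32a and Snord34 had an unadjusted p under 0.05, and Snord33 and Snord35a did not. Snord33 had 8.87, 8.78 and 10.34 in double knockout tumors, against 9.99, 10.67 and 10.003 in Apc knockout tumors. Double knockout tumor 3 was thus as high as the Apc knockout tumors, and among the 4 sets of Rpl13a only Snord32a had no overlap between groups. Without that tumor the difference of Snord33 was -1.396. The sets of Snord32a and Snord34 also carry the symbol Rpl13a.

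Snord118, the U8 RNA that acts in the maturation of the large ribosomal subunit RNAs, varied most of all C/D profiles. It had 7.81, 8.27 and 10.23 in double knockout tumors, against 9.998, 11.49 and 9.25 in Apc knockout tumors. The difference was -1.48 ± 0.80, with a 95% confidence interval between -3.41 and 0.45, and the groups overlapped. With each tumor left out in turn, the difference ran between -2.21, without double knockout tumor 3, and -0.86, when Apc knockout tumor 2 was the one left out.

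Other C/D sets with high signals had small differences. Snord82, within Ncl, had 12.11, 11.89 and 12.25 in double knockout tumors, against 12.32, 12.17 and 11.99 in Apc knockout tumors, a difference of -0.07 ± 0.14 with a 95% confidence interval between -0.41 and 0.27. Snord57, within Nop56, had -0.29 ± 0.18. The U14 sets, Snord14a, Snord14c with Snord14d, and Snord14e, had differences between -0.15 and 0.11. The sets above 0 included Snord58b, with 5.61, 6.05 and 6.44 in double knockout tumors, against 6.03, 5.66 and 4.73 in Apc knockout tumors, near the low end of the arrays and with overlap between groups.

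The Snord116 sets stood apart from the other C/D sets. Snord116 is a repeated cluster in the imprinted Prader-Willi region and is best known from neurons. Its 24 sets carried the same symbols and gave 7 profiles, 18 sets having one profile of 6.22, 6.73 and 6.28 in double knockout tumors, against 6.87, 6.64 and 6.04 in Apc knockout tumors. Signals lay between percentiles 19.3 and 40.1 of the arrays, the groups overlapped in each profile, and differences were between -0.12 and 0.07. They made up 24 of the 66 C/D sets and 7 of the 47 profiles, and the median of that class depends on whether they are counted.

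Host genes were compared with the snoRNAs that their introns contain. A host was taken as the shortest gene in the RefSeq table that contains the snoRNA, without regard to strand. Such a gene with a probe set of its own was found for 40 profiles, from 31 host genes. The 40 snoRNA profiles had a median difference of -0.39, against -0.02 for the 31 hosts, of which 18 were below and 13 above 0. Of the hosts, 1 had an unadjusted limma p under 0.05, Kansl2, the host of Snora34 and Snora2b. The snoRNA was below its host in 36 of the 40 pairs, and the median of the snoRNA difference minus the host difference was -0.33.

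The pairs were also tested one by one, as the snoRNA signal minus the host signal in each tumor. For 13 of the 40 pairs all double knockout tumors were below all Apc knockout tumors, and for 0 pairs all were above. This gives an exact two-sided permutation p of 0.1, the smallest possible with 3 against 3. Of all single sets, 6.3% were lower and 5.42% higher without overlap, and no such share was computed for other pairs of genes. Both Snora3 profiles with Rpl27a, and both Snord15a and Snord15b with Rps3, are among these pairs, so that they are not independent. With Rpsa, the laminin receptor and ribosomal protein, the host signals were 12.91, 12.70 and 12.94 in double knockout tumors, against 12.83, 12.93 and 12.79 in Apc knockout tumors, while Snora62 differed by -0.89. With Rps3 they were 12.28, 12.28 and 12.32 in double knockout tumors, against 12.31, 12.34 and 12.27 in Apc knockout tumors, while Snord15b differed by -0.68. With Tpt1 they were 13.69, 13.86 and 13.71 in double knockout tumors, against 13.76, 13.68 and 13.71 in Apc knockout tumors, while Snora31 differed by -0.76. These host transcripts differed by 0.04 or less between groups, with their signals near the upper end of the array scale.

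**Figure D4:**
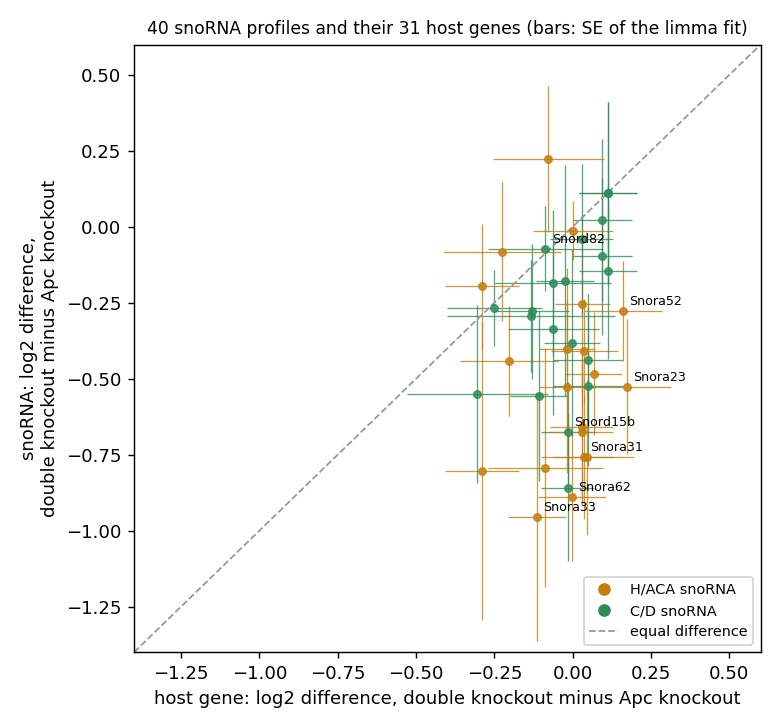
Log2 difference between genotypes of each snoRNA profile (vertical axis) against that of its host gene (horizontal axis), both as double knockout minus Apc knockout, with standard errors of the limma fit. Of 40 points, 36 lie under the dashed line of equal difference, and the 31 hosts lie between -0.30 and 0.17.

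The 2 snoRNAs within Ncl, the gene of the nucleolar protein nucleolin, show how pairs from 1 host differed. Snora75 had a difference of -0.79 ± 0.39, Snord82 one of -0.07 ± 0.14, and Ncl itself one of -0.09 ± 0.18. By type of host, the 29 profiles within ribosomal protein genes had a median of -0.55, with 26 of 29 below 0. The 18 profiles within noncoding host genes, 7 of them of Snord116, had -0.23, with 16 of 18 below 0. The 27 profiles in other protein-coding or unclassified genes had -0.27, with 23 of 27 below 0.

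Genes listed as noncoding hosts, which make no protein, were below 0 themselves. All 8 measured genes of this list were below 0, against 46.9% of all sets, with a median of -0.37. An unadjusted limma p under 0.05 was found for 3 of them, against 3.51% of all sets in this direction. Only Gas5 and Snhg16 of this list were hosts in the pairs above, and Snhg16 had -0.06 ± 0.15. Snhg17 had 10.44, 10.13 and 10.82 in double knockout tumors, against 10.96, 11.46 and 11.04 in Apc knockout tumors, a difference of -0.69 ± 0.22. Snhg15 had -0.43 ± 0.14 and Snhg11 had -0.84 ± 0.27. For Gas5, host of several C/D snoRNAs, the difference was -0.30 ± 0.22, and that of Snord47 from the same gene was -0.55 ± 0.29.

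The proteins that bind these RNAs had median differences near 0. The box C/D proteins (Fbl, Nop56, Nop58 and Snu13) had a median difference of -0.08 over 4 genes, and the 6 box H/ACA proteins had one of 0.00. The medians were -0.03 for 6 Sm core proteins, -0.09 for 6 U1 proteins, 0.04 for 12 U2 proteins, 0.02 for 10 proteins of the U4/U6.U5 particle and -0.03 for 23 proteins of the U3 processome. By sign, 3 of 4 C/D, 3 of 6 H/ACA, 5 of 6 Sm core and 5 of 6 U1 proteins were below 0. For U2, U4/U6.U5 and U3 the numbers were 5 of 12, 4 of 10 and 14 of 23, against 46.9% of all sets. None of these lists had a gene with an unadjusted limma p under 0.05. Fbl, the methyltransferase of C/D particles, had 10.80, 10.42 and 11.07 in double knockout tumors, against 10.77, 11.18 and 10.65 in Apc knockout tumors. Dkc1, the pseudouridine synthase of H/ACA particles, had 9.76, 9.40 and 9.86 in double knockout tumors, against 9.52, 9.80 and 9.23 in Apc knockout tumors.

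Assembly, synthesis and processing factors also had medians near 0. The 15 assembly factors had a median of -0.01, and the 12 genes of the SMN complex and of Sm protein methylation one of -0.01. The 12 Lsm proteins and RNA partners had one of 0.09, and the 7 histone mRNA processing genes one of 0.03. The 20 genes for the transcription and cutting of snRNAs (SNAPc, Integrator, Ell, Ice1 and Ice2) had one of 0.02. None of these lists had a gene with an unadjusted limma p under 0.05. Of the 8 minor spliceosome proteins, 1 was lower at that level, Rnpc3, which binds U12, with 9.14, 8.83 and 8.95 in double knockout tumors, against 9.24, 9.34 and 9.27 in Apc knockout tumors (difference -0.31 ± 0.11). Of the 16 exosome and trimming genes, 1 was higher, Tent4a, a noncanonical poly(A) polymerase, with a difference of 0.22 ± 0.09. Over all 16 lists, those of noncoding hosts and of other structured RNAs were the ones with more than 1 such gene.

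Small structured RNAs outside the rule were below 0 too. All 7 measured genes of this list were below 0, against 46.9% of all sets, with a median of -0.45. Rny3, a Y RNA bound by the Ro protein, had 12.49, 13.32 and 13.44 in double knockout tumors, against 13.63, 13.93 and 13.80 in Apc knockout tumors, a difference of -0.70 ± 0.26. Rmrp, the RNA of a ribonuclease that cuts the ribosomal RNA precursor, had -0.26 ± 0.09. Rn7sk, the RNA that holds the elongation factor P-TEFb, had -0.03 ± 0.08 at signals between 14.35 and 14.41. The 4 sets of small Cajal body RNAs (Scarna) had a median of -0.43 and none at p under 0.05. The 362 microRNA sets had a median of 0.00, at low signals with median percentiles of 22.1 to 24.5. At an unadjusted limma p under 0.05, 6 were lower (1.66%) and 3 higher (0.829%), against 3.51% and 1.89% of all sets. The 14 member profiles with a mean percentile under 33 also had a median near 0, at -0.04.

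The size of the difference varied with RNA length and with signal. Over the 82 profiles outside Snord116, the difference correlated with the annotated length across RNAs at Pearson r = -0.47 and Spearman rho = -0.48, in lengths of 45 to 215 nucleotides. These RNAs are not independent replicates, and longer RNAs also had higher signals (r = 0.42). All 31 profiles of 120 nucleotides or more were below 0, with a median of -0.71, against -0.27 for 23 profiles of 80 to 120 nucleotides and -0.36 for 28 shorter ones. Within the 29 H/ACA profiles the correlation with length was -0.08 by Pearson and -0.05 by Spearman, and within the 40 C/D profiles it was -0.41 by Pearson and -0.22 by Spearman. Silica columns recover short RNA less completely than long RNA, and the part of recovery in these differences was not tested.

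**Figure D5:**
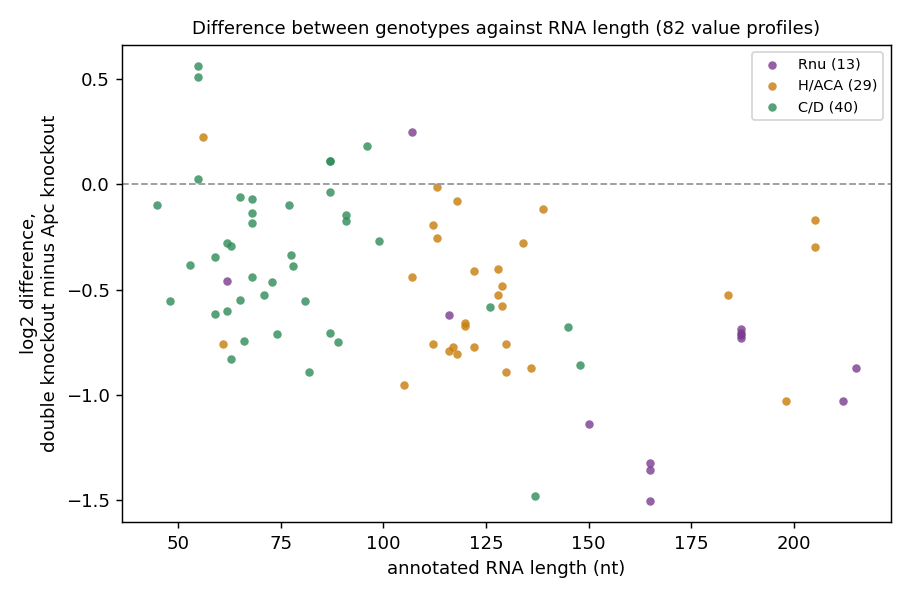
Log2 difference between the genotypes (vertical axis, double knockout minus Apc knockout) against annotated RNA length in nucleotides (horizontal axis) for 82 profiles, coloured by class. All 31 profiles of 120 nucleotides or more lie below 0.

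By signal, the 14 profiles with a mean percentile under 33 had a median difference of -0.04, the 19 between 33 and 67 one of -0.34, and the 56 above 67 one of -0.63. Over all sets tested, the medians of these classes of signal were 0.03, 0.00 and 0.00. The differences of the 14 profiles of low signal ran between -0.62 for Rnu5g and 0.56 for Snord58b, with 8 below and 6 above 0. The range over the 6 tumors had a median of 1.603 for Rnu, 1.17 for H/ACA and 1.04 for C/D profiles, against 0.50 for all sets tested.

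The number of members at this level depended on single tumors. At an unadjusted limma p under 0.05, 54 members were lower when double knockout tumor 3 was left out (against 4.67% of all sets), and 23 when Apc knockout tumor 2 was (against 4.07%), compared with 34 with all tumors (against 3.51%). The C/D count of 8 was 20 without double knockout tumor 3, and 3 to 5 when double knockout tumors 1 or 2 or the Apc knockout tumors 2 or 3 were left out, one at a time. The H/ACA count of 11 was 18 without double knockout tumor 3, and 5 to 7 when double knockout tumors 1 or 2 or the second Apc knockout tumor were. The Rnu count of 15 was 23 without double knockout tumor 2, and the 25 Rnu sets hold only 13 profiles. Over all sets, the lower share in the settings of these class counts ran between 2.28% and 4.67%. Sets without overlap between groups numbered 66 without double knockout tumor 3 (22 H/ACA and 23 C/D), against 37 (10 and 7) with all tumors. There were 13 such C/D sets without Apc knockout tumor 1 and 16 such H/ACA sets when Apc knockout tumor 3 was left out. This number cannot fall when a tumor is left out, and its share over all sets was not computed for these settings. Leaving out Apc knockout tumor 2 gave medians of -0.30 for H/ACA and -0.048 for C/D. The C/D median was -0.27 without double knockout tumor 2 and -0.34 when Apc knockout tumor 3 was left out. Without double knockout tumor 2, whose smooth muscle markers were high, 34 members were lower at an unadjusted limma p under 0.05, against 3.2% of all sets. The medians were then -0.36 for H/ACA and -1.02 for Rnu. The part of smooth muscle tissue in the other values was not tested. For Rnu12, both U3 profiles, the U1 profiles, Snora74a, Snora62, Snora16a, Snora31, Snord15a and Snord15b, the difference stayed below 0 with an unadjusted p under 0.05 whichever tumor was left out.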

How the data were processed

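Tumor RNA of 6 mice was hybridized to Affymetrix Mouse Gene 1.0 ST arrays. The authors corrected for background, normalized by quantiles and summarized the probes of each set (RMA in GeneSpring GX), and they deposited log2 values. The version of RMA is not given in the sources used here. Probe sets were named from the platform annotation: 21789 have 1 symbol, 1621 several and 12146 none. RefSeq (GRCm38.p6) gave RNA lengths, containing genes and hairpins. It held no sequence for the snoRNA and snRNA genes themselves.

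The genotypes were compared over all 23410 sets with a symbol (double knockout minus Apc knockout) by limma 3.58.1, run in R 4.3.3 without covariates, and two-sided p-values were adjusted over all sets by the Benjamini-Hochberg method (threshold 0.05). The code was tested on simulated data. Counts at an unadjusted p under 0.05 are descriptions. Replicates are separate mice. Replicate numbers did not pair the samples: correlations of deviations within numbers were -0.18, -0.07 and 0.09. The number of arrays limits the precision.

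The members and lists were chosen with earlier results of these data known. The genes named were every Rnu set, and for Snora and Snord each the 8 sets with the smallest p, the 5 with the highest and 3 with the lowest mean signal and the 4 with the largest range, the sets listed by the study, the imprinted Snord116 group, and up to 4 genes with the smallest p of each list. One Snord set that met this rule is not reported here. Snoras and Snords named besides these for their host gene or class were chosen after their values were seen. In lists, each gene stood for its single-symbol set with the highest mean. Alternatives were filters on low signals, all sets, sets without other genes, further normalizations, other variance models, a replicate block and leaving out each tumor.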

Additional observations from a re-analysis of the deposited data

How the results depend on the processing

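The counts and medians of the classes kept their direction under every alternative run. At an unadjusted p under 0.05, the methods' t-test gave 19 lower members in all, 5 H/ACA and 4 C/D, against 2.73% of all sets. A replicate block gave 29 lower members, 6 of them H/ACA, against 4.36% of all sets. The main fit gave 34, against 3.51%, so that with the block the members fell while the share over all sets rose. Counting identical values once gave 6 Rnu profiles at that level and 8 without overlap; this alternative and the one without Snord116 were chosen after seeing the data. The C/D median was -0.47 with sets at or above the 40th percentile, -0.38 with sets of the same symbols averaged and -0.36 without Snord116, since each leaves fewer of the Snord116 sets.

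Leaving out each tumor in turn, lower members at an unadjusted p under 0.05 numbered 23 to 54 (H/ACA 5 to 18, C/D 3 to 20, Rnu 15 to 23) and higher ones 0 to 1 (Rnu 0 to 1). The shares over all sets ran between 2.23% and 4.67% lower and between 1.28% and 3.59% higher. Members without overlap numbered 37 to 66 lower (H/ACA 10 to 22, C/D 7 to 23, Rnu 20 to 23) and 0 to 1 higher (C/D and Rnu each 0 to 1). The lower ends of these ranges were fixed in advance, because leaving out a tumor cannot make separated groups overlap. Medians were -0.55 to -0.30 for all members, -0.73 to -0.30 for H/ACA, -0.34 to -0.048 for C/D and -1.02 to -0.82 for Rnu. No member had an adjusted p under 0.05 in any of these settings.

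When a tumor was left out, the sign turned for 22 of the 89 profiles, all with a difference of 0.253 or less in size and 7 of them of Snord116. Values are given for 3 of them. Snora36b (Mir664) had 0.021 with median centring. With each tumor left out in turn, differences ran between -0.057 and 0.032 for Snora36b, between -0.16 and 0.024 for Snord82, and between -0.077 and 0.19 for a Snord116 set. The causes were not tested.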
